A study of Mus musculus with 6 samples.

Results

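Cells make prostaglandins and leukotrienes from arachidonic acid, and 10 genes of this pathway were chosen by name: the phospholipase gene Pla2g4a, the cyclooxygenase genes Ptgs1 and Ptgs2, the prostaglandin synthase genes Ptges and Hpgds, the prostaglandin E2 receptor genes Ptger2 and Ptger4, and the leukotriene genes Alox5, Alox5ap and Ltc4s. A gene was measured where a probe set carried its symbol alone in the platform's annotation table. That held for 9 of the 10, each with 1 probe set, out of 23410 probe sets tested. Ptgs1 had no such probe set and is not analysed here.

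The data come from 6 Affymetrix whole-transcript arrays of primary cultured mouse microglia, the resident macrophages of the brain. The fosB-null group had 3 arrays, of cells from animals that carried 2 copies of the null allele fosBG after 20 generations of backcrossing to C57BL/6J, and the wild-type group had 3, of cells from C57BL/6J animals. Both groups were prepared from cerebral cortex at an age of 2 days, with 10 days of culture before the microglia were isolated and 24 h of plating afterwards, and the labels give no agent. The null allele was present in every cell of the animal, and the labels do not describe the wild-type mice as littermates.

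Cytosolic phospholipase A2 frees arachidonic acid from membranes. Cyclooxygenases turn it into prostaglandin H2, from which separate synthases make prostaglandin E2 and prostaglandin D2, and 5-lipoxygenase with its activating protein FLAP turns it into leukotriene A4. Microglia are known to carry much of this machinery, and Ptgs2 and Ptges are known to be induced by inflammatory stimuli in macrophages. FosB, the product of the mutated gene, is a subunit of AP-1, a transcription factor that binds TGANTCA motifs.

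Upstream sequence is shown for Ptgs2 and Ptges because they are the inducible pair of the route to prostaglandin E2. Both sequences are from RefSeq (GRCm38.p6), cover the 250 bases before the listed transcript start and are written 5′ to 3′ on the gene's strand. Ptgs2 lies at chr1:150099781-150100030 on the plus strand and Ptges at chr2:30903298-30903547 on the minus strand. Capitals mark matches to the motifs searched for.
Ptgs2: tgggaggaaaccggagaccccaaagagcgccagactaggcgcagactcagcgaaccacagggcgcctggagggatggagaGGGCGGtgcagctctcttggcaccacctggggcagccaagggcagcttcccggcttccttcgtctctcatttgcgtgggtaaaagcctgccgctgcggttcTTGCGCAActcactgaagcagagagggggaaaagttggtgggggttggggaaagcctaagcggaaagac
Ptges: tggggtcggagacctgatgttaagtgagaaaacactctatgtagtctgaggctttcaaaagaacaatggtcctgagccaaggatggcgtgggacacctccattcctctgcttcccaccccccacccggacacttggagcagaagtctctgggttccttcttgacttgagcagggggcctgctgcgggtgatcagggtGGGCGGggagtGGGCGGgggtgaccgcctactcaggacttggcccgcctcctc

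The motifs were searched on both strands in windows of 300 bases, from 250 before to 50 after the start, and 8 of the 9 measured genes had at least 1 window in the table. The match was by gene number, and Alox5ap was the gene not matched. The AP-1 motif TGANTCA was in 0 of their 9 windows, against 7.81% of all 32851 windows, and the full cyclic AMP response element TGACGTCA was likewise in 0, against 1.79%. The core TGACGT and the E-box CACGTG were each found only in the Ptgs2 window, against 7.51% and 7.15% of all windows. They share 2 bases and begin at bases 13 and 17 of the listed transcript, at chr1:150100039-150100056 on the plus strand, where capitals mark both motifs.
Ptgs2 site: cactACGTCACGTGgagt

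The Ptgs2 window also held the C/EBP motif TTGCGCAA, 69 bases before the start, which was in 0.183% of all windows. The GC box GGGCGG was in the windows of Ptges, Ptgs2, Alox5 and Ptger4, against 35.7% of all windows. In Ptges it occurred 2 times, 53 and 42 bases before the start. A match describes letters in a window and is not evidence of binding. The CRE core and full CRE motifs overlap by definition.

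None of the 9 genes differed between fosB-null and wild-type microglia at an adjusted p under 0.05. In the limma fit across all tested probe sets, which called 0.00427% of them (1 probe set, that of C5ar2), the adjusted p was 1 for each gene. At an unadjusted p under 0.05 this fit also held 0 of the 9, against 0.722% of tested probe sets. For no gene did the 3 fosB-null arrays lie wholly above or below the 3 wild-type arrays, a separation seen in 1.12% of tested probe sets. The group means nevertheless stood apart most for Alox5ap and Pla2g4a, which were higher in fosB-null arrays in all 3 same-numbered pairs, and for Ptges, which was lower in 2 pairs and equal in the third. Higher signals in all 3 pairs occurred in 2.2% of tested probe sets. A probe set with equal values in any pair cannot count there. Such a tie was in 85.0% of those tested, against 5 of the 9 genes. Of the 3520 tested probe sets without a tie 515 were higher in all 3 pairs, against 2 of 4 genes.

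The arrays are numbered 1 to 3 in each group, and same-numbered arrays resembled each other. They also held exactly the same value in many probe sets, in 54.7% to 62.3% of those tested. Of the 27 pair values of the 9 genes, 7 were such ties, or 25.9%, against 57.6% over all tested probe sets. No source used here records the step behind the ties, and a tie is not a measurement of equality. The labels call the arrays biological replicates without naming separate litters or cultures, so the p-values measure the spread between these samples, which may be technical. In bulk RNA, fewer cells of a type and less RNA per cell cannot be told apart.

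Pla2g4a encodes cytosolic phospholipase A2 alpha, the enzyme that opens the pathway. Its log2 signal was 10.33, 10.82 and 10.66 in fosB-null replicates 1, 2 and 3, against 10.12, 10.50 and 10.56 in wild-type replicates 1, 2 and 3. Replicate 1 was the lowest array of both groups, and the groups overlapped. The means were 10.60 ± 0.25 and 10.39 ± 0.24 in fosB-null and wild-type arrays (SD, n = 3 each), a log2 difference of 0.21 with a standard error of 0.16 and a 95% interval of -0.18 to 0.60 (limma, adjusted p = 1). The pairs differed by 0.21, 0.32 and 0.10. When the replicate number entered as a block, the standard error was 0.06, and the limma adjusted p was 0.674 (from an unadjusted 0.0552). That adjusted value is not particular to Pla2g4a: in the same limma fit Ptger2 also had 0.674, from an unadjusted 0.376.

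Ptgs2 encodes cyclooxygenase-2, the inducible cyclooxygenase. Log2 signals were 8.26, 8.29 and 8.48 in fosB-null replicates 1, 2 and 3, against 8.33, 8.57 and 8.33 in wild-type replicates 1, 2 and 3. The pairs did not share a direction: the log2 differences were -0.07, -0.29 and 0.16. The group difference was -0.07 with a standard error of 0.10 and a 95% interval of -0.31 to 0.18 (limma, adjusted p = 1). Without wild-type replicate 2, the highest array, it was 0.014, in a fit that leaves fosB-null replicate 2 without its partner. Pla2g4a and Ptgs2 are next to each other on chromosome 1 with 0 measured genes between them. Their group differences had opposite signs, but in pair 3 both were higher in the fosB-null array, by 0.10 and 0.16.

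Ptges encodes microsomal prostaglandin E synthase-1, which acts after Ptgs2. Its log2 signal was 8.02, 8.13 and 8.10 in fosB-null replicates 1, 2 and 3, against 8.29, 8.47 and 8.10 in wild-type replicates 1, 2 and 3. The fosB-null arrays lay close together, and the groups overlapped through wild-type replicate 3, which was tied with its fosB-null partner. The means were 8.083 ± 0.056 and 8.29 ± 0.19 in fosB-null and wild-type arrays (SD, n = 3 each), a log2 difference of -0.20 with a standard error of 0.11 and a 95% interval of -0.45 to 0.05 (limma, unadjusted p = 0.0973, adjusted p = 1). In pairs 1 and 2 it differed by -0.27 and -0.34.

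Hpgds encodes the hematopoietic prostaglandin D synthase, known in brain as a microglial enzyme. The log2 signal of Hpgds was 12.77, 12.82 and 12.60 in fosB-null replicates 1, 2 and 3, against 12.69, 12.70 and 12.62 in wild-type replicates 1, 2 and 3. The fosB-null arrays held both the highest and the lowest value, so the wild-type range lay within the fosB-null range. The difference was 0.06 on the log2 scale with a standard error of 0.08 and a 95% interval of -0.13 to 0.25 (limma, adjusted p = 1).

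**Figure D1:**
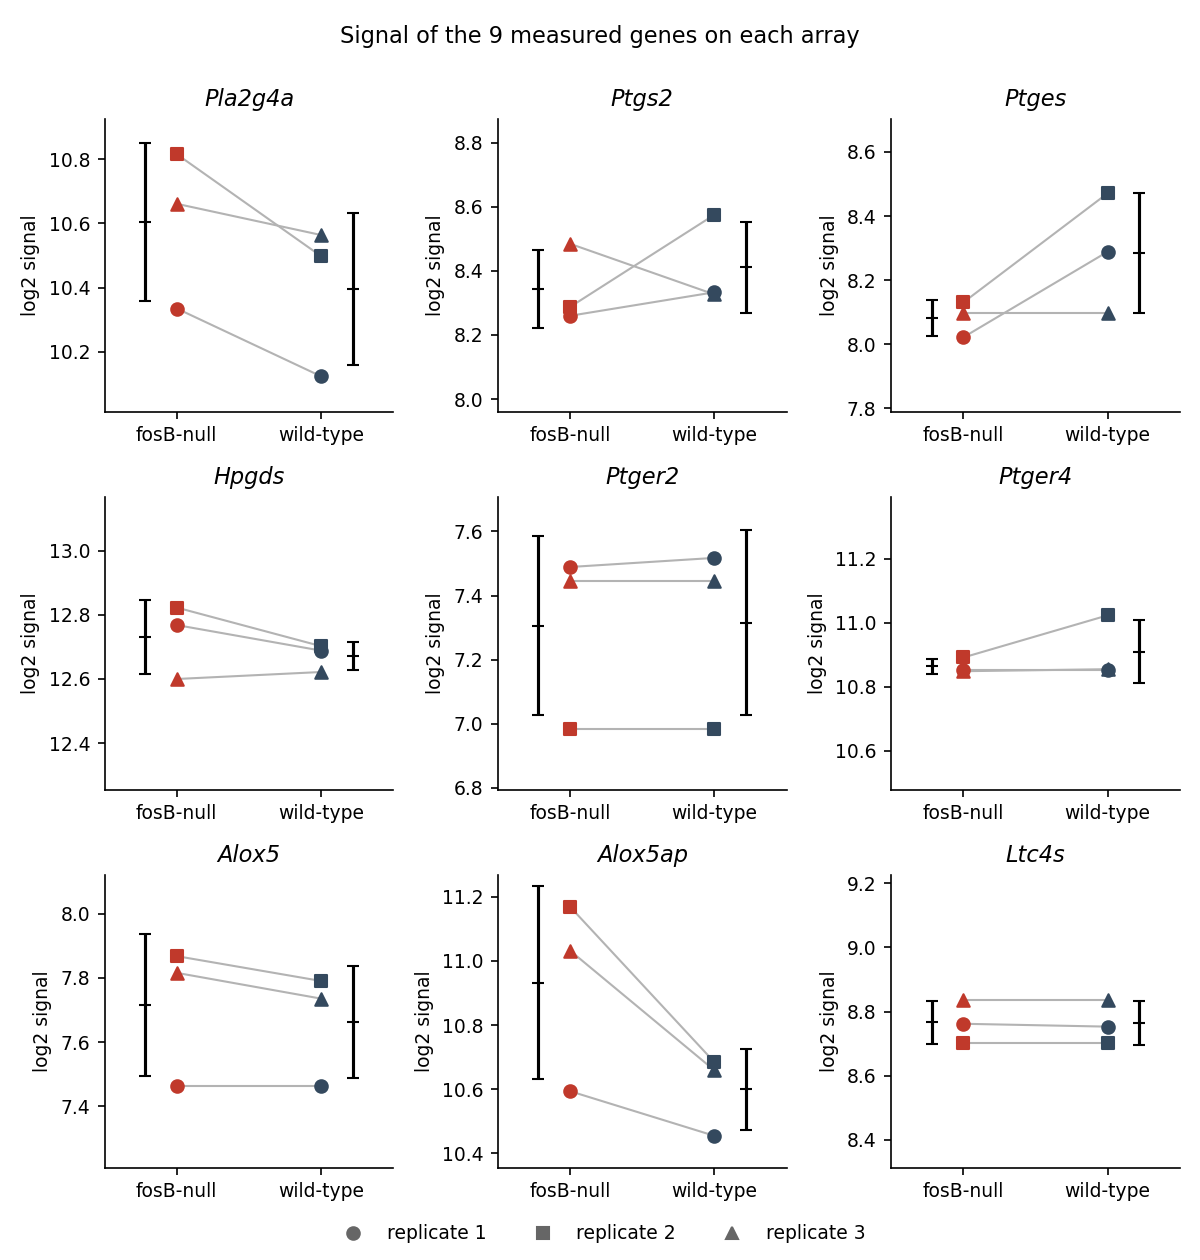
Log2 signal (vertical axes, all of the same length in log2 units but placed at different levels) of the 9 measured genes on each fosB-null (left) and wild-type (right) array. Symbols mark the replicate number, grey lines join same-numbered arrays, and black bars give the mean ± SD of 3 arrays. The lines of Alox5ap and Pla2g4a all run downward to wild-type, and flat lines are exact ties, as for Ptger2 and Ltc4s in pairs 2 and 3.

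Ptger2 and Ptger4 encode EP2 and EP4, the prostaglandin E2 receptors that raise cyclic AMP. Ptger2 had log2 signals of 7.49, 6.98 and 7.44 in fosB-null replicates 1, 2 and 3, against 7.52, 6.98 and 7.44 in wild-type replicates 1, 2 and 3. It was tied in pairs 2 and 3, so the difference of -0.0095 came from pair 1 alone, and its 95% interval was -0.45 to 0.44 (limma, adjusted p = 1). It was the only 1 of the 9 whose mean signal fell among the dimmest 40% of tested probe sets.

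Ptger4 had log2 signals of 10.85, 10.89 and 10.85 in fosB-null replicates 1, 2 and 3, against 10.85, 11.02 and 10.86 in wild-type replicates 1, 2 and 3. Only wild-type replicate 2 stood apart, and pair 1 was tied. The difference was -0.05 with a standard error of 0.08 and a 95% interval of -0.22 to 0.13 on the log2 scale (limma, adjusted p = 1).

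Alox5 encodes 5-lipoxygenase, the enzyme that begins leukotriene synthesis. The arrays gave log2 signals of 7.46, 7.87 and 7.82 in fosB-null replicates 1, 2 and 3, against 7.46, 7.79 and 7.74 in wild-type replicates 1, 2 and 3. Both groups had their lowest value on replicate 1, where the pair was tied, and pairs 2 and 3 each differed by 0.08. The difference was 0.05 with a standard error of 0.14 and a 95% interval of -0.28 to 0.38 (limma, adjusted p = 1).

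Alox5ap encodes FLAP, the membrane protein that presents arachidonic acid to 5-lipoxygenase. Its log2 signal was 10.59, 11.17 and 11.03 in fosB-null replicates 1, 2 and 3, against 10.45, 10.68 and 10.66 in wild-type replicates 1, 2 and 3. The fosB-null arrays of replicates 2 and 3 were above every wild-type array, while fosB-null replicate 1 was below wild-type replicates 2 and 3. The means were 10.93 ± 0.30 and 10.60 ± 0.13 in fosB-null and wild-type arrays (SD, n = 3 each), a log2 difference of 0.33, or 1.26-fold, with a standard error of 0.16 and a 95% interval of -0.04 to 0.70 (limma, unadjusted p = 0.0717, adjusted p = 1). This was the largest difference of the 9, and 1.11% of tested probe sets differed by as much or more in either direction. The pairs differed by 0.14, 0.48 and 0.37, and the limma adjusted p with the replicate number as a block was 0.674.

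Ltc4s encodes leukotriene C4 synthase, which adds glutathione to leukotriene A4. For Ltc4s the log2 signal was 8.76, 8.70 and 8.84 in fosB-null replicates 1, 2 and 3, against 8.75, 8.70 and 8.84 in wild-type replicates 1, 2 and 3. Pairs 2 and 3 were tied, and the group difference of 0.0030 changed sign under 2 rescalings of the arrays. Its 95% interval was -0.17 to 0.18 (limma, adjusted p = 1).

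**Figure D2:**
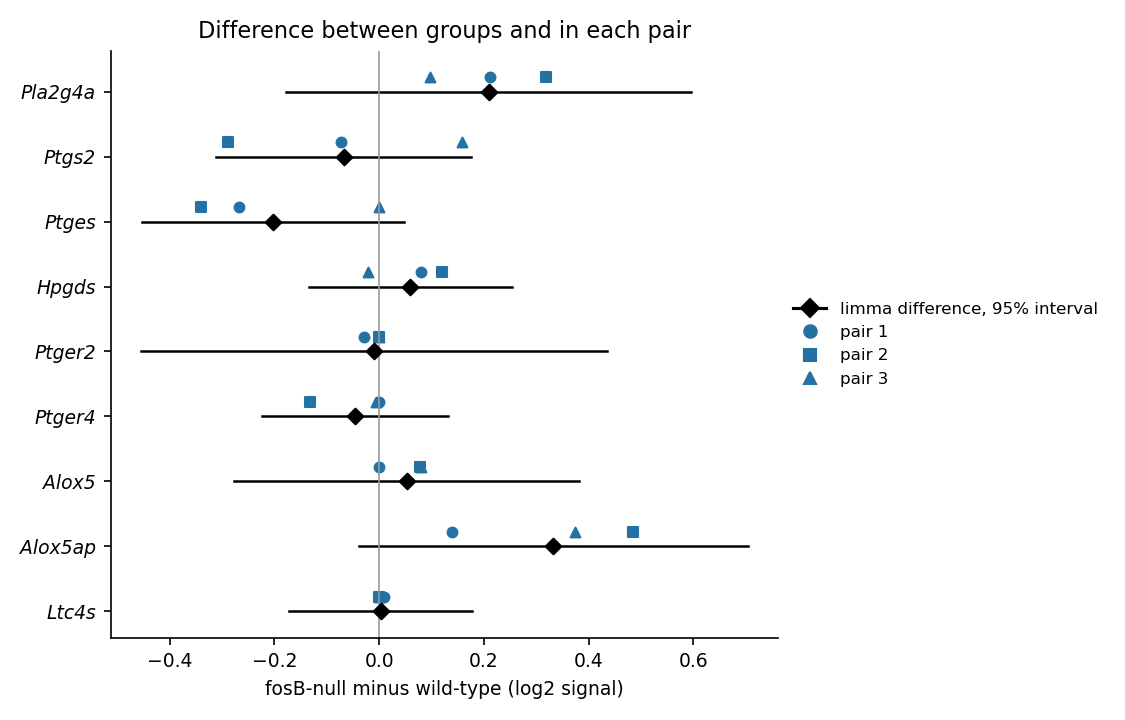
Difference in log2 signal, fosB-null minus wild-type (horizontal axis), for each of the 9 genes. Black diamonds and lines are the limma difference over 6 arrays with its 95% interval, and blue symbols above them are the differences of pairs 1, 2 and 3. Every interval includes 0, and only Alox5ap and Pla2g4a have all 3 pairs above 0.

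Over the 9 genes 5 differences were above 0 and 4 below, with a median of 0.0030, a lowest value of -0.20 and a highest of 0.33. Over all tested probe sets 30.9% were above 0, 41.3% below and 27.8% at 0, with a median of 0. The middle 95% of tested probe sets lay between -0.14 and 0.12, and Alox5ap, Pla2g4a and Ptges were outside it. The band includes probe sets tied in all 3 pairs, which lie at 0. They made up 27.8% of those tested, against 0 of the 9 genes, so the 9 are not like the tested probe sets in their ties. Differences as large as those of Pla2g4a and Ptges or larger were found in 2.37% and 2.47% of tested probe sets.

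Where the replicate number was a random block, limma gave 3 of the 9 genes an unadjusted p under 0.05, against 9.63% of tested probe sets. In that limma fit the adjusted p was 0.166 for Alox5ap (from an unadjusted 0.00182), 0.215 for Pla2g4a (from 0.00340) and 0.399 for Ptges (from 0.0161), so 0 of the 9 passed, against 0.201% of tested probe sets. The random block applied 1 correlation of 0.956 to every probe set, estimated with the exact ties included. The standard error of Alox5ap was 0.06 there, against 0.16 without a block. The part of the ties in these p-values was not tested. With the number as a fixed block 0 of the 9 passed by adjusted p, against 0% of tested probe sets, and 0 by unadjusted p, against 2.31%.

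Rescaling or leaving out 1 array also moved the count at an unadjusted limma p under 0.05, with 0 of the 9 past the adjusted threshold each time. It was 2 of the 9 with median centring (Ptges and Alox5ap), against 1.03% of tested probe sets. Ptges alone was counted with quantile normalization, against 1.11%, with array weights, against 1.38%, and without wild-type replicate 3, against 1.54%. Without fosB-null replicate 1 the 1 gene counted was Alox5ap, with a difference of 0.50, against 0.79% of tested probe sets. Each fit without 1 array leaves the same-numbered array without a partner. Here that was wild-type replicate 1, the lowest Alox5ap array at 10.45. Pairs 2 and 3 of Alox5ap differed by 0.48 and 0.37, both less than 0.50.

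The rest of the pathway was described by 53 further genes grouped by role, of which 49 were measured. By limma, 0 of the 49 passed the adjusted threshold, against 0.00427% of tested probe sets. At an unadjusted p under 0.05 this limma fit held 0 of the 49, against 0.722%. With the replicate number as a fixed block both counts were also 0, against 0% and 2.31% of tested probe sets. With this number as a random block 0 passed by adjusted p, against 0.201%, and 1 by unadjusted p, against 9.63%. Of the 49 differences 19 were above 0, 17 below and 13 at 0, with a median of 0, and all lay between -0.12 and 0.11. Exact ties in all 3 pairs accounted for the 13 at 0.

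Among genes of phospholipid and arachidonate supply, 7 of 14 measured were above 0, 5 below and 2 at 0. Acsl4, which activates arachidonic acid for storage in phospholipids, differed by 0.09 on the log2 scale. Mgll, the monoacylglycerol lipase that frees arachidonic acid in brain, differed by -0.12 with a standard error of 0.22, and its signal was 8.01, 7.82 and 7.29 in fosB-null replicates 1, 2 and 3, against 8.17, 7.61 and 7.71 in wild-type replicates 1, 2 and 3. Both groups were spread widely for Mgll, and pair 2 went against the other pairs. The secreted phospholipase genes Pla2g10 and Pla2g2e differed by 0.07 and -0.04.

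Of 6 other prostanoid synthase genes 1 was above 0 and 5 below. Ptgds, which encodes the lipocalin-type prostaglandin D synthase, differed by -0.06 through pair 1 alone, with ties in pairs 2 and 3. Cbr1, a carbonyl reductase that can convert prostaglandins, differed by -0.05. Of 5 genes of transport and breakdown 2 were above 0 and 3 at 0: Abcc4, a transporter that exports prostaglandin E2, differed by 0.05, and Hpgd, the dehydrogenase that inactivates prostaglandins, by 0.04. Hpgd was bright in all arrays, with log2 signals of 13.35 to 13.46 in fosB-null arrays, against 13.25 to 13.47 in wild-type arrays.

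Of 7 other prostanoid receptor genes 3 were above 0, 2 below and 2 at 0. Ptgir, the prostacyclin receptor gene, is 54 measured genes from Fosb on chromosome 7, among the nearer neighbours of the mutated gene. Its log2 signal was 7.51, 7.47 and 7.46 in fosB-null replicates 1, 2 and 3, against 7.43, 7.47 and 7.56 in wild-type replicates 1, 2 and 3. The groups overlapped with a difference of -0.0064 and a standard error of 0.07. Pla2g4c, another phospholipase gene, is 94 measured genes from Fosb and differed by 0.02 with a standard error of 0.12.

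Of 14 other leukotriene and lipoxygenase genes 4 were above 0, 5 below and 5 at 0, and of 3 leukotriene receptor genes 2 were above 0 and 1 at 0. Cyp4f18, which breaks down leukotriene B4 in mouse leukocytes, differed by 0.11 through pair 3 alone. Cysltr1, a receptor for cysteinyl leukotrienes, had log2 signals of 10.58, 10.79 and 10.71 in fosB-null replicates 1, 2 and 3, against 10.50, 10.79 and 10.53 in wild-type replicates 1, 2 and 3. It differed by 0.09 with a standard error of 0.10, and pair 2 was tied. Cysltr1 was the 1 gene of the 49 with an unadjusted p under 0.05 in the limma fit with the random block, where its adjusted p was 0.510.

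**Figure D3:**
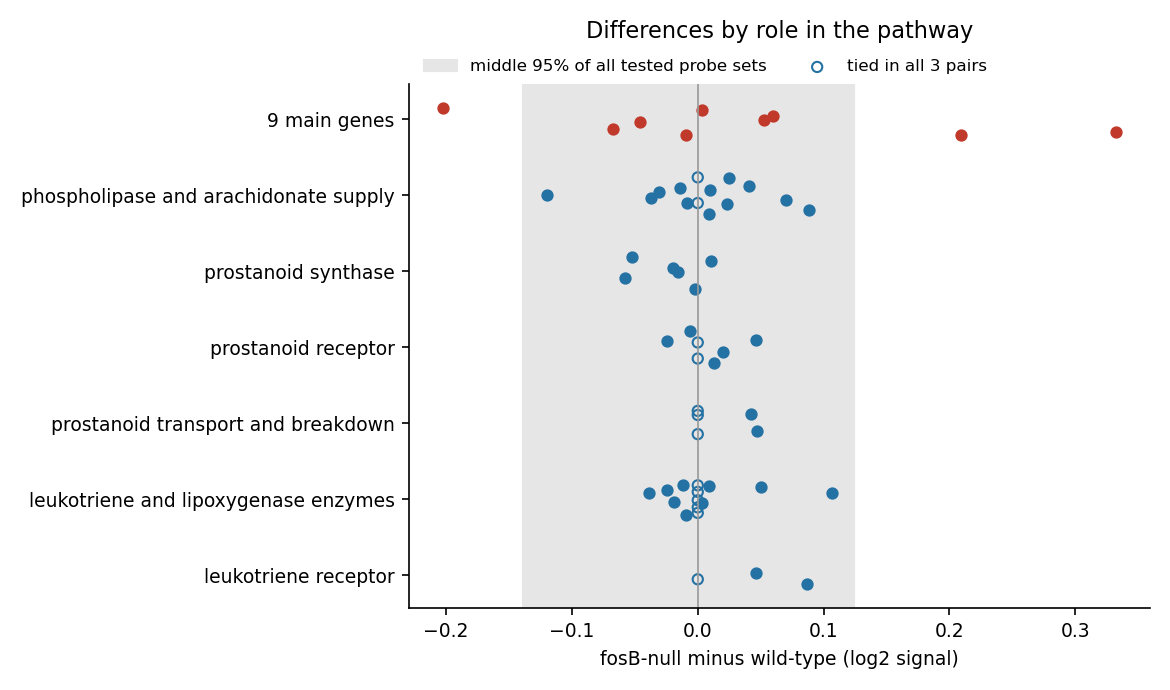
Difference in log2 signal, fosB-null minus wild-type (horizontal axis), of the 9 main genes (red) and 49 other pathway genes (blue) by role, with vertical scatter for visibility only. The grey band holds the middle 95% of all tested probe sets, -0.14 to 0.12, and open circles are the 13 genes tied in all 3 pairs. Alox5ap, Pla2g4a and Ptges are the 3 points outside the band.

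For Ptgs2 and Ptges, the genes with the most similar signal over the 6 arrays were sought among 17060 others, by the root mean square difference after each gene was centred on its own mean. For Ptgs2 they were Zfp944 at 0.027, Me1 at 0.033 and Prkar2b at 0.037 log2 units, where Ptgs2 itself varied by 0.11 about its mean. For Ptges they were Cyb5d2 at 0.025, Ninj1 at 0.032 and Fcna at 0.037, where Ptges varied by 0.15. Their differences were -0.17, -0.18 and -0.24, each below 0 like that of Ptges, which likeness over these arrays implies.

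The cultures carried microglial markers. In the 9 measured markers of microglia the signal was above that of 59.6% to 99.4% of tested probe sets, a coarse guide because probe sets differ in response. Of the 9, 8 were above 0 and 1 below, against 30.9% above and 41.3% below over all tested probe sets. The differences were -0.0084 to 0.13, and 0 of the 9 had an unadjusted p under 0.05 by limma, against 0.722% of tested probe sets. The summed signal of the microglial markers was 15.68 to 15.84 log2 units in fosB-null arrays, against 15.64 to 15.81 in wild-type arrays. Mast cells are another known source of Hpgds and Ltc4s, and all 6 of their markers were among the dimmest 40% of tested probe sets, with sums of 9.10 to 9.18 in fosB-null arrays, against 9.10 to 9.20 in wild-type arrays. The part of these markers in the differences above was not tested.

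Sums for the other cell types also overlapped between the groups. They were 9.86 to 9.95 in fosB-null arrays, against the same range in wild-type arrays, for 6 astrocyte markers, all tied in every pair. For 5 of the 6 oligodendrocyte lineage markers they were 11.01 to 11.13 in fosB-null arrays, against 11.08 to 11.26 in wild-type arrays. The signal of these 5 was above that of 32.4% to 71.9% of tested probe sets, a range that overlaps that of the microglial markers. Of the differences of these 5 markers 3 were below 0, 1 above and 1 at 0. Among them Mbp, the myelin basic protein gene, was the only marker of any list whose groups did not overlap. Such a separation was seen in 1.12% of tested probe sets, and Mbp was named after its values were seen. Its log2 signal was 9.74, 9.62 and 9.70 in fosB-null replicates 1, 2 and 3, against 10.06, 9.86 and 9.76 in wild-type replicates 1, 2 and 3, a difference of -0.21 (limma, adjusted p = 1, and 0.232 with the random block). That is close in size to the difference of Ptges, and its part in the pathway values was not tested. The neuronal and fibroblast sums overlapped too. They were 9.70 to 9.93 in fosB-null arrays, against 9.68 to 9.90 in wild-type arrays, for 5 neuronal markers, and 10.07 to 10.17 in fosB-null arrays, against 10.07 to 10.11 in wild-type arrays, for 5 fibroblast markers. For 4 endothelial markers the sums were 9.38 to 9.48 in fosB-null arrays, against 9.38 to 9.56 in wild-type arrays, and for 6 of 7 blood leukocyte markers 9.33 to 9.56 in fosB-null arrays, against 9.29 to 9.52 in wild-type arrays. Fosb itself had a log2 signal of 7.82, 8.05 and 7.83 in fosB-null replicates 1, 2 and 3, against 8.01, 8.14 and 7.92 in wild-type replicates 1, 2 and 3. The sources used here do not place that probe set inside or outside the mutated stretch, and its signal cannot serve as a check of the genotype.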

How the data were processed

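RNA was amplified from 100 ng per sample and hybridised to 1 array each. The deposited table holds log2 values, 1 per probe set and array, and the submitters' processing notes name Affymetrix Expression Console for them. No source used here gives its version, the summary of probes, the normalization or the build. The scale was read from the values, 1.73 to 14.6 with array medians of 7.76 to 7.92.

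The 9 genes and all gene lists were chosen with earlier results of these data known. limma 3.58.1 (R 4.3.3; lmFit and eBayes, two-sided, no block, no filter) compared the groups over the 23410 probe sets with at least 1 gene symbol in the platform table, with Benjamini-Hochberg adjustment and calls at 0.05. Each difference subtracts the wild-type mean. The number of arrays limits the precision. On simulated arrays of the 23410 probe sets, this test recovered 20 of 67, 50 of 67 and 63 of 66 probe sets changed by 0.5, 1 and 2 log2 units, with 7 false calls. The simulated arrays were drawn independently, without the exact ties or the likeness of same-numbered arrays. The counts therefore do not give recovery or error rates for the real arrays. After group means were subtracted, same-numbered arrays correlated at 0.62, 0.56 and 0.58, by which the numbers were taken as pairs; the labels do not state a pairing.

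Where a gene had several single-gene probe sets, that with the highest mean stood for it. Named besides the 9 genes are, of the other pathway genes, the 10 with the lowest unadjusted p, any whose groups do not overlap (there was none) and those within 100 measured genes of Fosb, and the 3 genes most like Ptgs2 and Ptges, with predicted genes, vomeronasal and olfactory receptors and small non-coding RNAs left out. C5ar2 is named as the single call. Gene names and order came from a RefSeq table of GRCm38.p6. Alternatives were a fixed and a random replicate block, quantile normalization, median centring, an intensity trend, leaving out the dimmest 40%, testing all or only single-gene probe sets, robust eBayes, array weights and leaving out each array.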

Additional observations from a re-analysis of the deposited data

How the results depend on the processing

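Across 16 alternatives, 0 of the 333 recomputed adjusted p-values of the 9 main and 12 named other genes fell under 0.05. The lowest was 0.166, for Alox5ap with the random replicate block, and without that fit it was 0.674. The count of called probe sets was 1, but 0 with the replicate block and 47 with the random replicate block, and with single arrays left out it was 1 to 2, the 2 without wild-type replicate 3, where a probe set with several gene symbols joined C5ar2. The sign of Ltc4s turned with quantile normalization (-0.0015) and median centring (-0.021), that of Pla2g4c with median centring (-0.00042) and that of Ptgir with array weights (0.024). With single arrays left out, differences that turned sign ranged from -0.14 to 0.014 for Ptgs2, -0.17 to 0.15 for Ptger2, -0.075 to 0.010 for Ptger4, -0.048 to 0.18 for Alox5, -0.032 to 0.039 for Ltc4s, -0.11 to 0.0064 for Ptgds, -0.27 to 0.088 for Mgll, -0.0051 to 0.10 for Hpgd, -0.092 to 0.023 for Pla2g2e, -0.090 to 0.12 for Pla2g4c and -0.035 to 0.030 for Ptgir. Those of Alox5ap (0.21 to 0.50), Pla2g4a (0.07 to 0.34), Ptges (-0.30 to -0.11) and Hpgds (0.013 to 0.12) kept theirs, as did those of Acsl4 (0.041 to 0.17), Cysltr1 (0.033 to 0.18), Cyp4f18 (0.043 to 0.22), Pla2g10 (0.027 to 0.12), Abcc4 (0.018 to 0.067) and Cbr1 (-0.11 to -0.0090). Leaving out 1 array leaves its same-numbered array without a partner, so the level of that replicate number enters the difference. For Ptger2 the pairs differed by -0.028, 0 and 0. Its difference was 0.15 without fosB-null replicate 2 and -0.17 without wild-type replicate 2. The cause of the turns in sign was not tested. Medians stayed within the spread between arrays, at -0.032 to 0.039 for the main and -0.039 to 0.040 for the other pathway genes.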
